A study of Mus musculus with 16 samples.

Results

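The comparison described here sets the skin of mice that carry Krt14-Cre against the skin of mice that do not, over both states of a second Cre transgene, LysM-Cre. It was made by genotype label and takes in all 16 libraries of the series, 8 from carriers and 8 from non-carriers. Every mouse was Zc3h12a(loxP/loxP), so the floxed allele is shared by carriers and controls alike. The carriers were 4 EKO mice, labelled Zc3h12a(loxP/loxP)Krt14Cre(Tg/Wt), and 4 EMdKO mice, which had LysMCre(Tg/Wt) in addition. The non-carriers were 4 Control mice with no Cre and 4 MKO mice with LysMCre(Tg/Wt) alone. All were 12 weeks old, no treatment was labelled, and each library was made from whole skin of 1 mouse. With LysM-Cre status as a covariate, the fit estimates 1 Krt14-Cre difference from both backgrounds.

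Zc3h12a encodes MCPIP1, also called Regnase-1, an endoribonuclease that cuts messenger RNAs, many of them of inflammatory proteins, at stem-loops in their untranslated regions. The keratin 14 promoter is active in basal keratinocytes of the epidermis and of its appendages, hair follicles and sebaceous glands among them, and the lysozyme M promoter in macrophages, monocytes and neutrophils. Keratinocytes leaving the basal layer build the cornified envelope and the barrier lipids, and they also release cytokines of the IL-1 and IL-36 families, antimicrobial peptides and protease inhibitors. Whole skin holds dermis, fat, vessels, muscle and hair follicles beside the epidermis, so fewer cells of a type and less RNA per cell cannot be told apart in any value below.

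Each library held between 6962474 and 12086327 counts over 23930 amplicon targets, and levels are given as CPM, counts scaled to the library's total, a scale on which levels of different genes are not compared. Transcripts of Krt5, Krt14, Krt1, Krt10, Lor, Col1a1 and Col3a1 were present in all 16 libraries, the lowest value being 382 CPM for Krt1 in Control mouse 1. The 4 Y-linked genes checked were counted in all 16 libraries, and Xist reached at most 5 counts. Of the libraries, 2 stand apart. Control mouse 1 had the highest score for hair shaft and inner root sheath genes, a mean log2 CPM of 8.93, where the other groups reached 2.69 (MKO), 6.28 (EKO) and 6.15 (EMdKO). The score varied within every group, the lowest being -0.94 in Control, -1.04 in MKO, 0.99 in EKO and -0.86 in EMdKO skin. EKO mouse 1 lacked most of the changes seen in the other 7 carriers. Counts of list members are from the fit with all 16 libraries, unless a fit without EKO mouse 1 is named.

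Zc3h12a was lower in every carrier than in every non-carrier. Its level was 19.4, 21.7, 30.3 and 27.4 CPM in the Control mice and 17.1, 35, 29.2 and 24.8 CPM in the MKO mice. In the EKO mice it was 11.7, 7.07, 7.40 and 8.41 CPM, with mouse 1 highest, and in the EMdKO mice 5.47, 5.69, 5.71 and 4.41 CPM. The log2 fold change of carriers over non-carriers was -1.91 ± 0.19 (SE), with a Benjamini-Hochberg adjusted p of 0.000184 in edgeR's quasi-likelihood test. An exact two-sided permutation test within LysM-Cre status gave p = 0.000408, the smallest that its 4900 assignments can give. Where the amplicon lies relative to the deleted exons is not given in the sources used here, and the remaining counts can come from cells without Cre activity. Krt14 itself, whose promoter drives the transgene, was at 651 to 1364 CPM in non-carriers and 676 to 4127 CPM in carriers, with a log2 fold change of 0.91 ± 0.27 (adjusted p = 0.166, edgeR). Lyz2, the gene that holds LysM-Cre, had a log2 fold change of -0.01 ± 0.21 (adjusted p = 0.994, edgeR).

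Of 13633 targets tested, 126 passed an adjusted p of 0.05 (edgeR), which is 0.924%. The 107 that rose (0.785%) outnumbered the 19 that fell (0.139%). The median log2 fold change was 1.76 over the targets that rose and -0.84 over those that fell, and 43 of the 107 rose at least 4-fold. Over all tested targets the median was -0.03, with 44.8% positive. Leaving out EKO mouse 1 gave 353 targets (2.57% of 13756), among them all 126, whereas leaving out EKO mouse 2 gave 47.

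Of the IL-1 family cytokines, 4 rose. Il1f6, which encodes IL-36 alpha, was at 1.61, 1.73, 1.78 and 1.62 CPM in Control skin and at 0.470, 1.64, 1.31 and 0.878 CPM in MKO skin. EKO mice 2 to 4 had 92.4, 79.5 and 79.3 CPM, the EMdKO mice 34.9, 30.4, 58.5 and 40.7 CPM, and EKO mouse 1 had 0.516 CPM. All carriers but EKO mouse 1 were therefore far above every non-carrier, and EKO mouse 1 was within the non-carrier range. The log2 fold change was 5.21 ± 0.61 (adjusted p = 0.00105, edgeR), and it was 5.21 in each background taken alone. Il1f8, encoding IL-36 beta, rose by 2.49 ± 0.36 on the log2 scale, from 4.39 to 11.2 CPM in non-carriers to 15.1 to 74.4 CPM in the 7 carriers without EKO mouse 1. Il1f9, encoding IL-36 gamma, rose by 1.65 ± 0.29, and Il1a, the IL-1 alpha gene, by 1.87 ± 0.35. In the list of IL-1, IL-36 and other epithelial cytokines, 4 of 12 tested members rose, none fell, 10 were positive and the median was 0.70. The 12 members not tested for low counts include Il6, Il17a, Il17c, Il22, Il23a and Tslp. Il1b, at 0.42, and Il1rn, the receptor antagonist, at 0.59, did not pass (adjusted p = 0.883 and 0.337, edgeR).

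None of the 20 tested cytokine receptors of keratinocytes passed, and their median was -0.14. The IL-36 receptor chain Il1rl2 had a log2 fold change of -0.13 and its partner Il1rap 0.03. The members of smallest p were Il1r1, the IL-1 receptor, at -0.33 ± 0.13, and Il1rl1, the IL-33 receptor, at -0.81 ± 0.32. In the chemokine list 6 of 23 were positive (median -0.32), and 1 passed, which fell: Cxcl14, a chemokine made constitutively by epithelia, lay between 148 and 282 CPM in non-carriers and between 67.7 and 175 CPM in carriers (log2 fold change -0.78 ± 0.16, adjusted p = 0.0246, edgeR). Its groups overlap through EMdKO mice 3 and 4, and the call was lost in 7 of the 16 fits that left out 1 mouse, with the replicate block and without the LysM-Cre covariate. Ccl20, a chemokine of epithelia, was at 1.31 ± 0.43 and did not pass (adjusted p = 0.207, edgeR). In the fit without EKO mouse 1, 1 chemokine passed as higher and 1 as lower.

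Immune messenger RNAs described elsewhere as MCPIP1 targets were also counted as a list. Of 17 tested, 3 rose, namely Il1f6, Il1f8 and Il1f9, and Zc3h12a itself fell. The other 13 did not pass; Rel, an NF-kB subunit, was at 0.57 ± 0.18 and Nfkbiz, a nuclear NF-kB cofactor, at 0.47 ± 0.21. None of 18 NF-kB subunits and feedback inhibitors passed (median 0.05), and of 13 decay factors Zc3h12a alone passed, with its paralog Zc3h12c at 0.55 and the Roquin genes Rc3h1 and Rc3h2 at 0.14 and -0.10. In the fit without EKO mouse 1, 4 described targets rose and 1 fell. That fit also had 1 rise in the NF-kB list, and 1 rise and 1 fall among the decay factors.

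The 3 IL-36 genes that rose are neighbours on chromosome 2, so the 250 bases before the RefSeq start of the IL-1 family members that rose are shown, on build GRCm38.p6 and read along the gene's own strand. Il1f8 lies at chr2:24152922-24153171 on the plus strand, Il1f9 at chr2:24186226-24186475 on the plus strand and Il1a at chr2:129309973-129310222 on the minus strand, while Il1f6 has no entry in the promoter table. Capitals mark matches, on either strand, to TGANTCA (AP-1) or AACNGGTT (grainyhead), and all 3 sequences are otherwise in lower case.
Il1f8: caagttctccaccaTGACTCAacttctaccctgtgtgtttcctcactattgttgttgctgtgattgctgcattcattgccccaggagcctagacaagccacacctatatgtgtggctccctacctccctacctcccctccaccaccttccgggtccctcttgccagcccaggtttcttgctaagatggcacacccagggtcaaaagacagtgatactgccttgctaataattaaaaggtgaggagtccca
Il1f9: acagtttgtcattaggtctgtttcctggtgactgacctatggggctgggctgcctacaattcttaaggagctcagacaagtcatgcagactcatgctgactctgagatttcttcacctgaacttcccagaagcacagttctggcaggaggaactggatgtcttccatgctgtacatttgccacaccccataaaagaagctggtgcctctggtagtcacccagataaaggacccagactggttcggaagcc
Il1a: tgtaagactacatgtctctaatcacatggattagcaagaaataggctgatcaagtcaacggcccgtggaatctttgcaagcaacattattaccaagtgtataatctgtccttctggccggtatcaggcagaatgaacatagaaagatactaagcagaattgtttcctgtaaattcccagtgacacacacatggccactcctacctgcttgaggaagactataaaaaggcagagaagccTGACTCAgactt
An AP-1 match begins 236 bases before the start of Il1f8 and 12 bases before that of Il1a, and Il1f9 has no match to either motif. Among genes that rose and have a promoter entry, 12 of 83 held an AP-1 match (14.46%), compared with 7.82% of 27025 genes and 6.75% of 32851 promoters of the same length. The grainyhead letters were found in 4 of the 83 and in 2.00% of all genes. These counts describe letters in a window and were not tested.

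**Figure D1:**
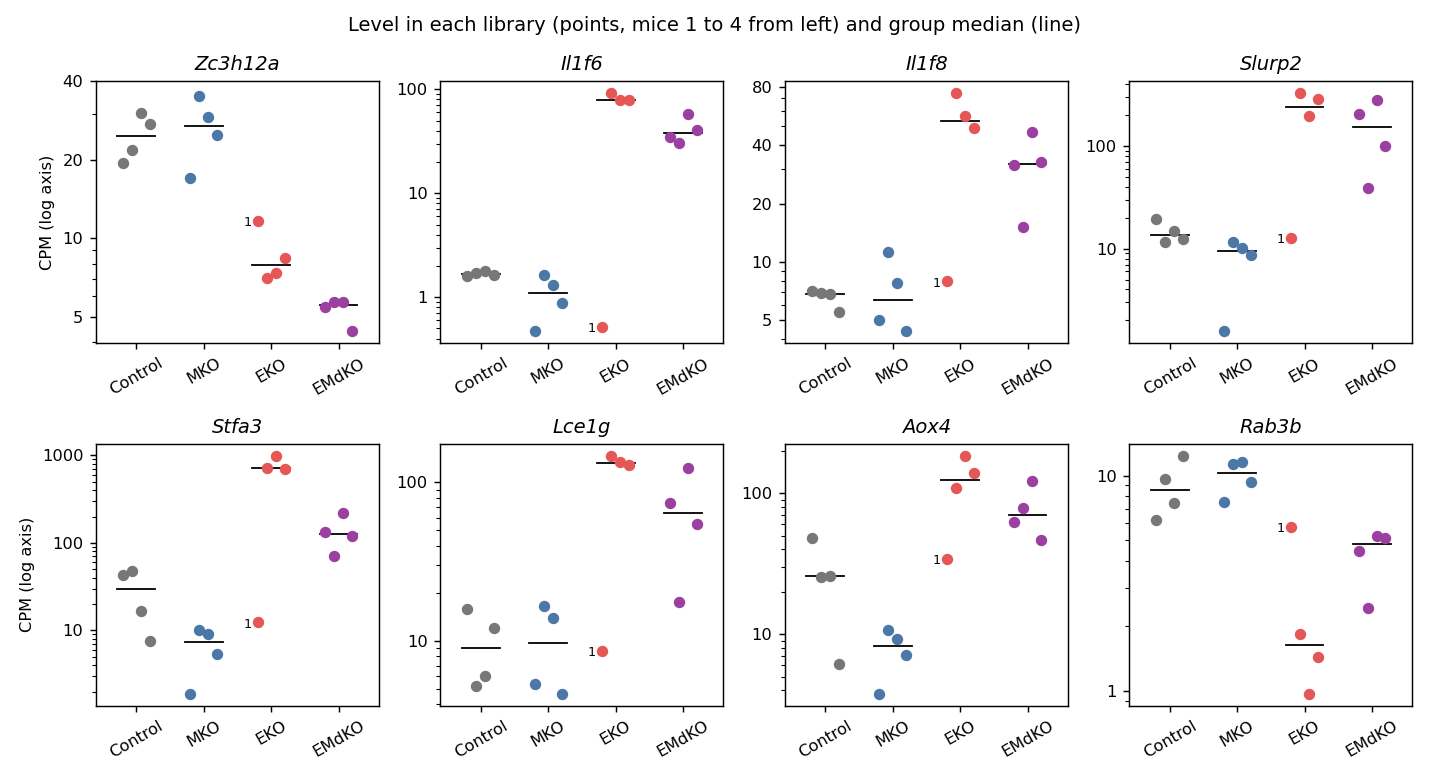
Level of 8 genes in each of the 16 libraries, in CPM on a log axis, by group; points are mice 1 to 4 from left to right, the line is the group median and the digit marks EKO mouse 1. For Il1f6, Il1f8, Slurp2, Stfa3 and Lce1g the EKO and EMdKO mice lie above all Control and MKO mice except EKO mouse 1, and for Zc3h12a and Rab3b all carriers lie below all non-carriers.

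Antimicrobial peptides and alarmins rose in part. Of 15 tested, 4 rose, 14 were positive and the median was 1.20. Chil1, a chitinase-like protein, was at 8.30, 11.9, 3.18 and 1.00 CPM in Control and at 1.10, 1.52, 0.834 and 1.00 CPM in MKO skin. It was at 4.13, 120, 137 and 64.1 CPM in EKO and 40.4, 21.6, 69.9 and 22.7 CPM in EMdKO skin, above every non-carrier except in EKO mouse 1 (log2 fold change 4.31 ± 0.62, adjusted p = 0.00390, edgeR). The beta-defensins Defb14 and Defb6, neighbouring genes of epithelial antimicrobial peptides, rose by 2.64 ± 0.50 and 1.93 ± 0.39 on the log2 scale. S100a9, a subunit of calprotectin, rose by 3.82 ± 0.85 (adjusted p = 0.0405, edgeR), but Control mouse 2 at 24.7 CPM was above all 4 EMdKO mice, which had 3.63 to 10.5 CPM. Its partner S100a8, at 3.69, did not pass (adjusted p = 0.112, edgeR). S100a9 was not called in 14 of the 16 fits that left out 1 mouse.

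S100a9 and S100a8 are also neutrophil genes, so that list was read beside them. S100a9 was the only 1 of 9 tested neutrophil genes to pass, and the list's median was 0.04. The level summed over all 17 list members was 133 to 345 CPM in Control and 195 to 266 CPM in MKO skin. It was 181 to 746 CPM in EKO and 199 to 215 CPM in EMdKO skin. Of the 8 list members with too few counts to be tested, Ly6g had 1 count over all 16 libraries, and the granule genes Ngp, Mpo, Elane, Camp and Ltf stayed at or below 1.22 CPM in each. Mmp8 reached 2.79 CPM, and Trem1 reached 19.0 CPM in Control mouse 2 and 10.3 CPM in EKO mouse 3. Of the tested members, Retnlg was at -2.03 ± 0.79, with 26.1 CPM in MKO mouse 3 and 10.2 CPM in Control mouse 2, and Cxcr2, a chemokine receptor, at 1.14 ± 0.85 (adjusted p = 0.324 and 0.680, edgeR). Csf3r, the G-CSF receptor, was at -0.40. The part of neutrophils in the S100a9 value was not tested.

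Protease inhibitors, most of them of the stefin A and clade B serpin families, were positive in 16 of 16 tested members (median 1.10), and 5 rose. The list also holds Cstb, Cst6 and Spink5, which are of neither family. Stfa3, a stefin A cysteine protease inhibitor, was at 1.88 to 47.3 CPM in non-carriers. It was at 721, 992 and 698 CPM in EKO mice 2 to 4, at 133, 71.4, 218 and 118 CPM in EMdKO mice and at 12.4 CPM in EKO mouse 1. Its log2 fold change was 4.37 ± 0.63 (adjusted p = 0.00390, edgeR). The log2 difference in Stfa3 was 4.41 ± 0.91 (SE) in EKO minus Control and 4.34 ± 0.93 in EMdKO minus MKO. Neither passed the threshold in its background alone (edgeR adjusted p = 0.206 and 0.116), and the interaction, which tests the difference between them, had an unadjusted p of 0.956. Serpinb3a, a serpin of squamous epithelium, had 6 counts in the 8 non-carriers together and 1158 in the carriers, so its log2 fold change of 7.25 ± 0.99 rests on very few non-carrier counts. Serpinb3b rose by 2.02 ± 0.40, Serpinb12 by 2.15 ± 0.43 and Cst6, the cystatin E/M gene, by 1.32 ± 0.29. The Serpinb3 and stefin A genes are close copies, and how reads were divided among them is uncertain.

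Slurp2, a secreted Ly6-type protein of keratinocytes, was at 19.4, 11.7, 14.9 and 12.5 CPM in Control and 1.57, 11.6, 10.1 and 8.66 CPM in MKO skin. It was at 328, 195 and 284 CPM in EKO mice 2 to 4 and at 204, 39.0, 283 and 100.5 CPM in EMdKO mice, with EKO mouse 1 at 12.7 CPM. The log2 fold change was 4.04 ± 0.56 (adjusted p = 0.00390, edgeR). Further large rises were those of Atp12a, an ion-pumping ATPase (3.73 ± 0.69), Gsdmc2, a gasdermin (3.39 ± 0.58), Chga, the granule protein chromogranin A (3.35 ± 0.49), and 2610528A11Rik, a ligand of the receptor GPR15 (3.06 ± 0.70). Gsdmc2 stayed at or below 1.01 CPM in all non-carriers. The rise of 2610528A11Rik was not called in 12 of the fits that left out 1 mouse, and its groups overlap in EMdKO mice 2 and 4.

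Genes of the cornified envelope and the filaggrin family were positive in 23 of 24 tested members (median 0.80), with 7 rises and no fall. Hrnr, the filaggrin-like protein hornerin, was at 96.2, 153, 161 and 182 CPM in Control, 102, 140, 143 and 104 CPM in MKO, 92.8, 684, 659 and 602 CPM in EKO and 350, 271, 458 and 405 CPM in EMdKO skin. Only EKO mouse 1 among the carriers was not above all non-carriers, and the log2 fold change was 1.69 ± 0.29 (adjusted p = 0.0111, edgeR). Its chromosomal neighbours Rptn, repetin, and Flg, filaggrin, rose by 2.73 ± 0.53 and 1.68 ± 0.35. The late cornified envelope genes Lce1g, Lce1e, Lce1k and Lce1i rose by 3.08 ± 0.52, 2.44 ± 0.42, 2.28 ± 0.45 and 1.76 ± 0.37, and these too lie side by side and are similar in sequence, so that reads could be split among them. Lor, loricrin, the most abundant envelope protein, did not pass at 0.49, nor did Ivl, involucrin, at 0.65, or Flg2 at 0.11 (adjusted p = 0.515, 0.391 and 0.917, edgeR).

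Suprabasal keratins and desmosome genes were all positive, 15 of 15 with a median of 0.36, but none passed. Krt1, the keratin of early differentiation, came closest. It was at 382 to 1278 CPM in non-carriers, 3890, 5036 and 4572 CPM in EKO mice 2 to 4, 1349 to 2458 CPM in EMdKO mice and 458 CPM in EKO mouse 1, with a log2 fold change of 1.63 ± 0.38 (adjusted p = 0.0552, edgeR). Basal keratinocyte genes had a median of 0.08 over 18 members with none called, and the closest was Krt14. Stress keratins and wound-activated genes had a median of -0.08 over 19 members (-0.39 in EKO minus Control and 0.49 in EMdKO minus MKO), none called. In that list the 2 of smallest p were Krt79, a keratin, at 1.04 ± 0.25 and Plau, urokinase, at -0.73 ± 0.18 (adjusted p = 0.0641 and 0.0791, edgeR). Krt16, a keratin of activated epidermis, was at 1.84 (adjusted p = 0.228, edgeR). In the fit without EKO mouse 1, 3 members of the suprabasal list, 1 of the basal list and 2 of the stress keratin list rose, and none fell.

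Kallikreins and other epidermal proteases, some of which act in shedding of the cornified layer, were positive in 16 of 17 members (median 1.08), and 4 rose. Klk12 was at 0.314 to 2.00 CPM in non-carriers and 3.68 to 10.4 CPM in the 7 carriers without EKO mouse 1, which had 0.516 CPM (log2 fold change 2.57 ± 0.44, adjusted p = 0.0111, edgeR). Klk13 rose by 2.78 ± 0.60, Klk11 by 1.15 ± 0.26 and Prss27, a membrane-anchored serine protease, by 2.33 ± 0.39. Klk13 overlapped between groups, with Control mice 1 and 2 at 27.2 and 22.2 CPM and EMdKO mice 2 and 4 at 5.82 and 8.51 CPM. Klk13 was not called in 9 of the 16 fits that left out 1 mouse and with the replicate block, and Klk11 was not called in 12 of those fits. Klk5 and Klk7, the main desquamation proteases, did not pass at 0.39 and 0.59 (adjusted p = 0.463 and 0.225, edgeR).

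Barrier lipid genes were positive in 25 of 28 members (median 0.37), and 5 rose. Degs2, a desaturase and hydroxylase that makes phytoceramides, was at 1.43 to 7.43 CPM in non-carriers and 9.66 to 50.2 CPM in carriers other than EKO mouse 1, which had 3.61 CPM (log2 fold change 2.82 ± 0.44, adjusted p = 0.00545, edgeR). Lipk, an acid lipase of the upper epidermis, rose by 1.79 ± 0.32, Elovl3 and Elovl4, fatty acid elongases, by 2.03 ± 0.40 and 1.17 ± 0.27, and Slc27a4, a fatty acid transporter, by 0.98 ± 0.21. The call of Slc27a4 was lost in 12 of the 16 fits that left out 1 mouse and with the replicate block. The lipoxygenases of the barrier, Alox12b and Aloxe3, were at 0.74 and 0.37 and did not pass (adjusted p = 0.249 and 0.649, edgeR).

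Sebaceous gland genes were positive in 18 of 19 members (median 0.52). The 4 that rose were Awat1, a wax ester synthase, by 2.01 ± 0.39, Elovl3, Cidea, a lipid droplet protein, by 1.47 ± 0.33, and Elovl5 by 1.00 ± 0.21. Cidea was not called in 14 of the 16 fits that left out 1 mouse, Elovl5 in 8, Elovl3 in 3 and Awat1 in 1. Awat1 was at 3.64 to 14.9 CPM in non-carriers and 19.6 to 57.9 CPM in carriers, EKO mouse 1 at 4.34 CPM aside. Scd1, Fasn and Pparg were at 0.06, 0.35 and -0.05 and did not pass. In the retinoid list 1 of 19 rose: Aox4, an aldehyde oxidase that converts retinaldehyde to retinoic acid, was at 3.76 to 48.2 CPM in non-carriers and 34.3 to 184 CPM in carriers (2.71 ± 0.42, adjusted p = 0.00545, edgeR). Its groups overlap in Control mouse 1, EKO mouse 1 and EMdKO mouse 4, and the list's median was -0.02.

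**Figure D2:**
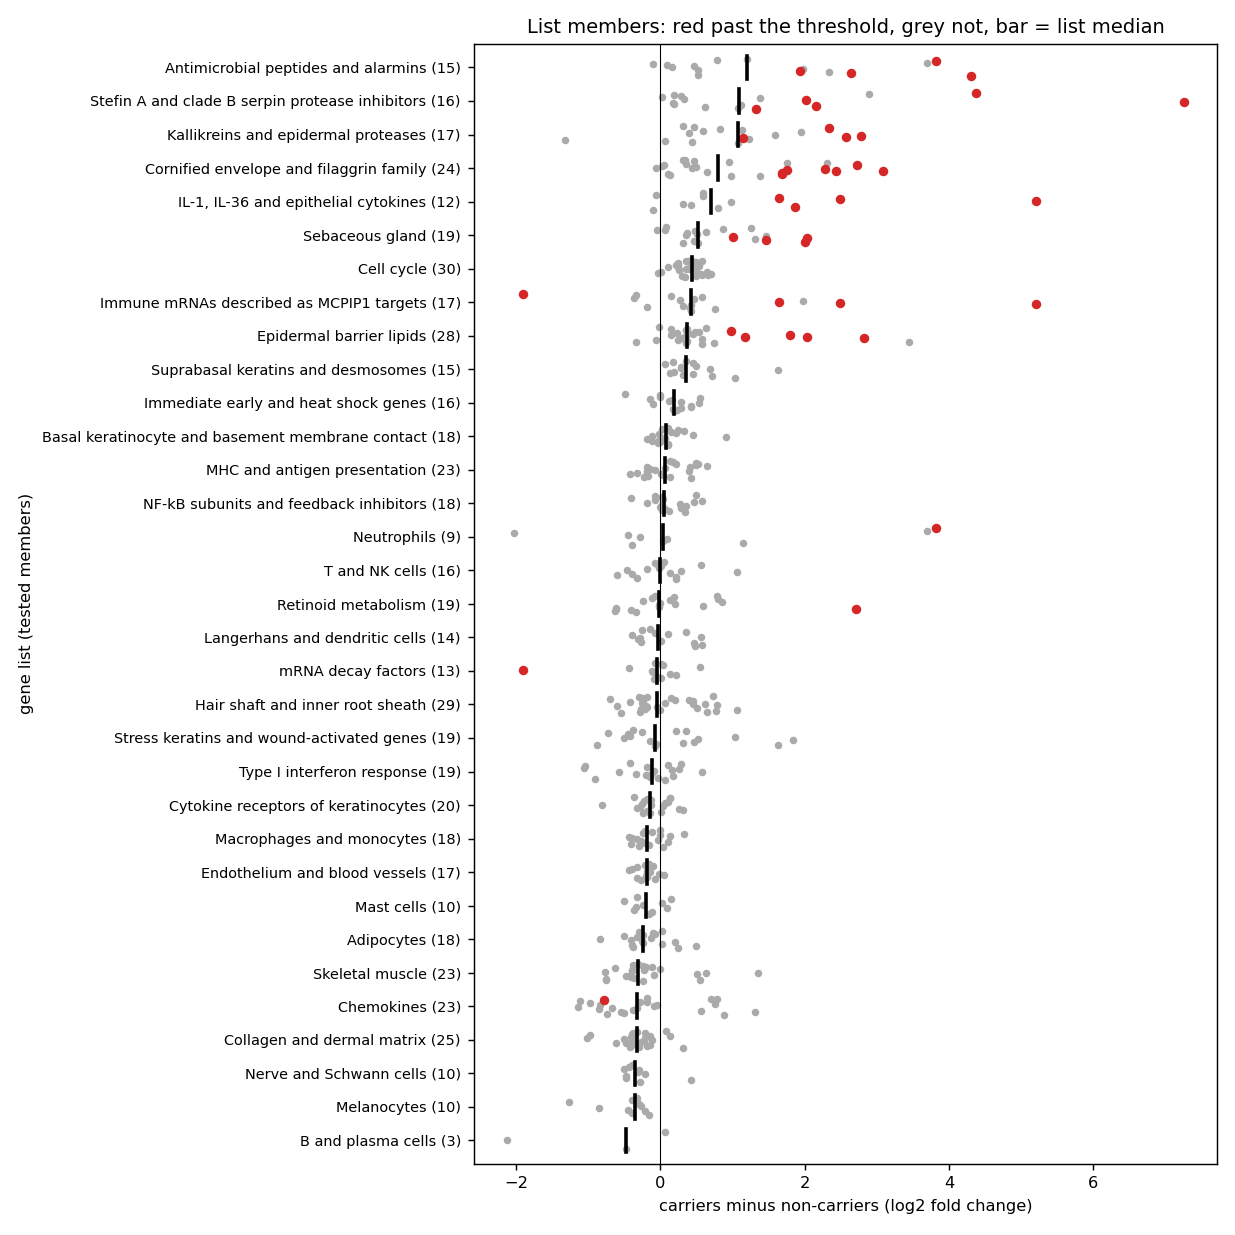
Log2 fold change of carriers over non-carriers for the tested members of 33 gene lists, with the number tested in brackets; red points passed an adjusted p of 0.05, grey points did not, and the black bar is the list median. Lists of the differentiated epidermis lie to the right, from 1.20 for antimicrobial peptides to 0.36 for suprabasal keratins, while collagen genes have a median of -0.33. The lists of cytokines (0.70), sebaceous gland (0.52), cell cycle (0.44) and described MCPIP1 targets (0.42) lie in the same range.

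Cell cycle genes were positive in 29 of 30 members, with a median of 0.44, and none passed (largest Ccnb2 at 0.70 ± 0.20, adjusted p = 0.149, edgeR). Against this, genes of the dermis and its structures lay slightly below zero. Collagen and dermal matrix genes were positive in 3 of 25 (median -0.33), endothelial genes in 1 of 17 (-0.19), and nerve and Schwann cell genes in 1 of 10 (-0.35), none of them called. In the fit without EKO mouse 1, 1 collagen and matrix gene passed as lower. Melanocyte genes were positive in 0 of 10 (-0.36), none called, but their median was -1.03 in EKO minus Control and 0.50 in EMdKO minus MKO. Their score, as mean log2 CPM, ranged from 1.23 to 5.64 in Control, 1.23 to 2.38 in MKO, 1.84 to 4.37 in EKO and 1.52 to 2.95 in EMdKO skin. The matrix genes Mfap5 and Fn1 were at -0.97 ± 0.25 and -1.02 ± 0.31 (adjusted p = 0.0858 and 0.175, edgeR). Immune cell markers did not pass in any list other than that of neutrophils. The median was 0.00 for T and NK cells, -0.03 for Langerhans and dendritic cells, -0.18 for macrophages and monocytes and -0.20 for mast cells. For B and plasma cells, with 1 of 3 tested genes positive, it was -0.47, and Jchain was at -2.12 ± 0.68 (adjusted p = 0.201, edgeR). The score of that list was 2.2 to 3.0 in Control, 3.63 to 5.09 in MKO, 2.01 to 3.01 in EKO and 3.45 to 4.2 in EMdKO skin. The summed level of macrophage markers was 946 to 1328 CPM in Control, 843 to 1172 in MKO, 769 to 1223 in EKO and 734 to 1151 in EMdKO skin. Interferon response genes had a median of -0.11 and antigen presentation genes 0.07. How far a shift in the share of epidermis in the sampled skin enters the values above was not tested; the basal keratinocyte score ranged from 7.47 to 8.11 in non-carriers and from 7.64 to 8.12 in carriers, as mean log2 CPM.

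The genes that fell changed less than those that rose. Rab3b, a GTPase of vesicle release, was at 6.19, 9.64, 7.47 and 12.4 CPM in Control, 7.52, 11.4, 11.6 and 9.29 CPM in MKO, 5.78, 1.83, 0.971 and 1.45 CPM in EKO and 4.47, 2.42, 5.23 and 5.15 CPM in EMdKO skin. All carriers lay below all non-carriers, and the log2 fold change was -1.49 ± 0.30 (adjusted p = 0.0230, edgeR). Lama1, a laminin alpha chain of basement membranes, fell by 1.96 on the log2 scale (SE 0.41) but overlapped between groups, with MKO mouse 4 at 2.89 CPM and EMdKO mouse 1 at 3.65 CPM. Ildr2, an immunoglobulin-domain receptor, lay between 5.50 and 12.7 CPM in non-carriers and between 1.82 and 5.06 CPM in carriers with no overlap (-1.07 ± 0.20, adjusted p = 0.0183, edgeR). Pla1a, a phospholipase A1, fell by 1.25, Nptx1, a neuronal pentraxin, by 1.16, Tmem100, a membrane protein of endothelium, by 0.87 and Lmx1a, a homeodomain factor, by 0.84. Ngfr, the low-affinity neurotrophin receptor, fell by 0.79, Prrg3 by 0.78 and Dact1, a regulator of Wnt signalling, by 0.77. Of the 16 fits that left out 1 mouse, Tmem100 and Ngfr were not called in 13, Nptx1 and Lmx1a in 11, Dact1 in 10, Lama1 in 8, Prrg3 in 5, Rab3b in 3 and Pla1a in 1, and Ildr2 was called in all.

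**Figure D3:**
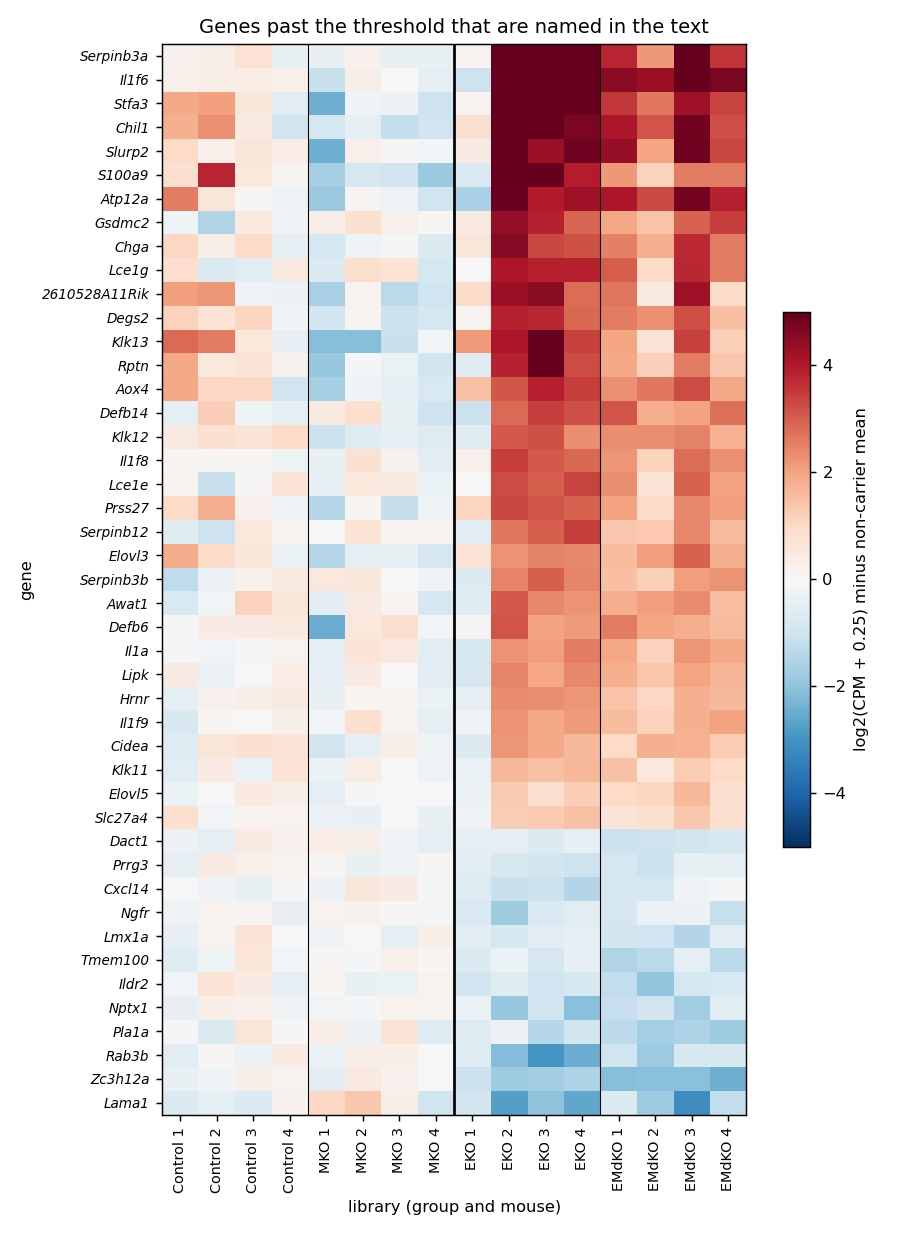
Log2(CPM + 0.25) minus the non-carrier mean for the genes named by rule that passed the threshold, in rows from the largest rise to the largest fall, over the 16 libraries in columns; the thick line divides non-carriers from carriers and the colour scale is capped at 5. The column of EKO mouse 1 is close to the non-carriers over most rows that rose and blue for Zc3h12a.

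EKO mouse 1 differed from the other carriers at nearly all genes that rose. Called targets whose 8 carriers and 8 non-carriers did not overlap numbered 6, of 7 among all tested targets (0.0513%), and without EKO mouse 1 they numbered 81, of 132 among all (0.968%). This mouse exceeded every non-carrier at 6 of the 107 targets that rose, whereas each of the other 7 carriers did so at 87 to 107. At the 19 targets that fell it was below every non-carrier at 13, against 11 to 19 for the other carriers. Because it took part in choosing those targets, each carrier was also set against targets called without it. Of 282 targets higher without EKO mouse 1, this mouse exceeded every non-carrier at 7 (2.48%), and its median log2 difference from the non-carrier mean was -0.27. The other carriers exceeded every non-carrier at 76.1% or more of the targets higher without them. Those sets held 43 to 92 targets, called with EKO mouse 1 in the fit, so the shares are not over like sets. Of 69 targets lower without EKO mouse 1, it was below every non-carrier at 20 (29.0%). EMdKO mouse 3 was so at 8 of 24 (33.3%), and the other carriers at 61.5% to 100% of between 4 and 13 targets. The Zc3h12a level of EKO mouse 1, 11.7 CPM, was the highest among carriers and below the lowest non-carrier at 17.1 CPM. Without EKO mouse 1, list rises went from 4 to 6 for cytokines and 4 to 5 for antimicrobial peptides. Protease inhibitors went from 5 to 8, cornified envelope genes from 7 to 8 and barrier lipid genes from 5 to 9. Kallikreins and proteases went from 4 to 7, with 1 fall. Sebaceous genes went from 4 to 9, retinoid genes from 1 to 3 and neutrophil genes from 1 to 2. Cytokine receptor and cell cycle genes had no call in either fit.

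**Figure D4:**
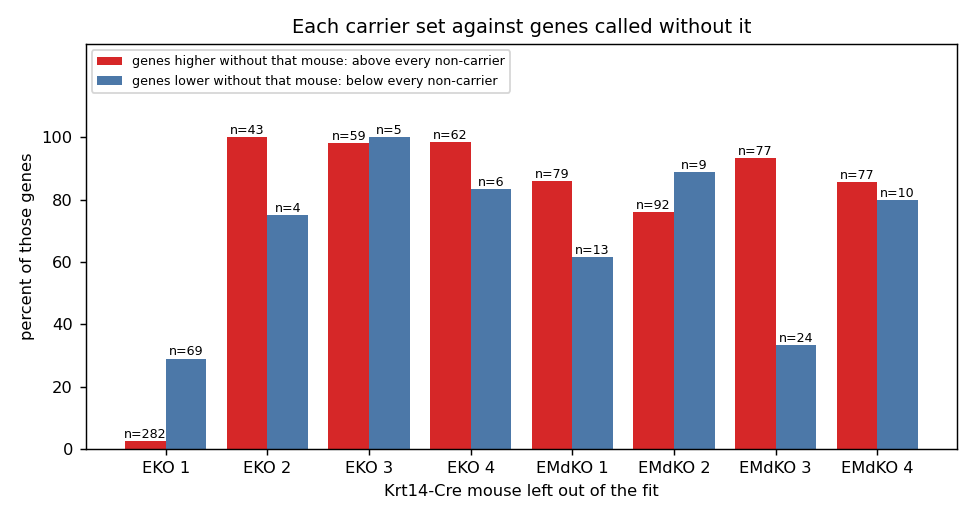
For each Krt14-Cre mouse, the percent of targets called higher in a fit without that mouse at which it exceeded every non-carrier (red), and the percent of targets called lower at which it was below every non-carrier (blue); n gives the number of targets. EKO mouse 1 stands at 2.48% in red where the other carriers stand at 76.1% or more.

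The Krt14-Cre difference was then read in each LysM-Cre background. All 107 targets that rose were positive and all 19 that fell were negative in EKO minus Control and in EMdKO minus MKO alike, which the joint choice favours. Among those that rose the median was 1.61 in EKO minus Control and 1.82 in EMdKO minus MKO, and 36 of 107 were larger in the former. With 1 mean per group and a spread shared by 16 libraries, EKO against Control gave no call in edgeR (0%). DESeq2 gave 59 and limma-voom 4. In edgeR 940 targets had an unadjusted p under 0.05 in EKO against Control, where 682 would by chance. EMdKO against MKO gave 1 call, Zc3h12a (0.00734%), with 147 in DESeq2 and 8 in limma-voom, and 90 (0.686%) when those 8 libraries were fitted alone. Without EKO mouse 1, EKO against Control gave 127 calls and EMdKO against MKO 95.

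A check with disjoint mice used the 90 targets called in EMdKO and MKO alone, 85 higher and 5 lower. Of these, 88 were tested in a fit of EKO and Control alone, where 87 had the same direction, Tmprss11e being the exception, and 57 had an unadjusted p under 0.05. Over all 12939 targets tested in both fits, 58.3% had the same direction and 4.88% had such a p in EKO against Control. Across all targets the log2 fold changes of the 2 backgrounds had a Pearson r of -0.09, given as a description across genes. The hair list medians had opposite signs, -2.12 in EKO minus Control and 3.63 in EMdKO minus MKO, with no member called over both. Hair scores differed widely between mice of the same group. As mean log2 CPM they ranged from -0.94 to 8.93 in Control, -1.04 to 2.69 in MKO, 0.99 to 6.28 in EKO and -0.86 to 6.15 in EMdKO skin.

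**Figure D5:**
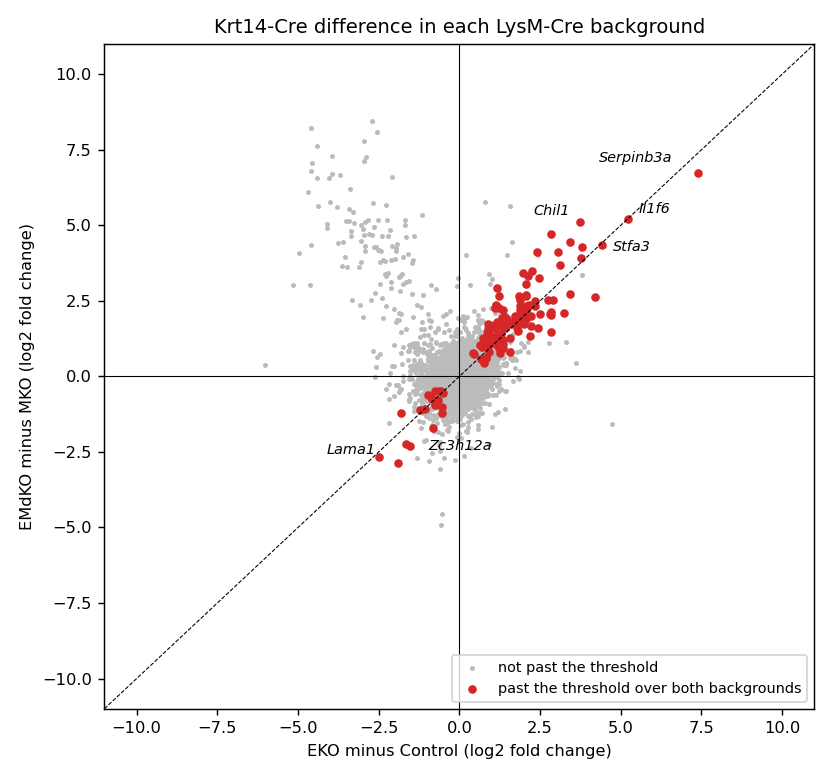
Log2 fold change of each of 13633 targets in EKO minus Control (x) and in EMdKO minus MKO (y), with the identity line dashed; red points passed an adjusted p of 0.05 over both backgrounds. The red points lie along the identity line in the upper right and lower left, and a grey cloud of targets that are negative in x and positive in y extends to the upper left.

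No target had a Krt14-Cre difference that depended on LysM-Cre at an adjusted p of 0.05 in edgeR (0%) or limma-voom. DESeq2 called 3. In edgeR 465 targets had an unadjusted interaction p under 0.05, fewer than the 682 expected by chance over 13633 targets. These counts include EKO mouse 1, which lacked most of the rises seen in the other carriers. Among the 126 called targets 2 had an unadjusted interaction p under 0.05. For Zc3h12a the fall was 1.52 in EKO minus Control and 2.32 in EMdKO minus MKO, an interaction of -0.80 ± 0.32 (unadjusted p = 0.0245, edgeR). For Elovl3 the rise was 1.15 ± 0.44 and 2.93 ± 0.47, an interaction of 1.78 ± 0.63 (unadjusted p = 0.0120, edgeR), and EKO mouse 1, at 50.1 CPM, was the lowest of the EKO mice, which otherwise had 145 to 170 CPM.

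Some called genes lay beside other called genes. Of 124 that could be placed in the RefSeq order of GRCm38.p6, 25 were next to another called gene among the tested ones, in 10 runs, and all 25 rose. The runs hold Il1f8, Il1f9 and Il1f6, the filaggrin family genes Flg, Hrnr and Rptn, the 4 Lce1 genes, Klk13, Klk12 and Klk11, Serpinb3a and Serpinb3b, Defb14 and Defb6, and Chit1 and Chil1, with the other 3 runs in gene families of lipid and retinol metabolism. Of all tested targets 0.924% were called, and 13437 were placed. How many neighbours a random choice among them would give was not computed. For similar copies such as the Lce1 and Serpinb3 genes, reads could be split between neighbours.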

How the data were processed

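RNA of whole skin was amplified with the Ion AmpliSeq Transcriptome Mouse kit, 1 library a mouse, per the labels' protocols. The files hold raw counts per target, which the authors deposited without normalization. HTSeq 0.6.0 and DESeq2 1.18.1 are named in the submitters' processing notes, and the aligner, genome build and annotation are not given in the sources used here. The 5 summary lines of each file, equal to 3.11% to 5.25% of its counts, were removed. Symbols came from RefSeq (22452 targets) and GENCODE (110), and 1368 targets had none.

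Targets were kept by filterByExpr over the 4 groups, scaled by TMM and tested with edgeR 4.0.16 (R 4.3.3) by the quasi-likelihood test, with Krt14-Cre and LysM-Cre as terms and 13 residual degrees of freedom. P-values were adjusted by Benjamini-Hochberg over 13633 targets. Single backgrounds and the interaction came from a fit with 1 mean per group. A target measured at low counts is the least certain, since the count sets its precision. The biological coefficient of variation was 0.322. SEs are the fold change divided by the square root of F. The edgeR test of Krt14-Cre was checked on simulated data.

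Alternatives were DESeq2 1.42.0, limma-voom 3.58.1, other scalings and filters, hair and muscle scores as covariates, a replicate block and leaving out each mouse. Named genes are Zc3h12a, Krt14 and Lyz2, then, of called targets that have a symbol and average 1 or more in log2 CPM, the 12 largest rises and 12 largest falls and the 6 of smallest p, up to 4 called members of each list and the 2 of smallest p in lists with none. Other list members are named for their role. Lists and members were chosen with earlier results of these data known. Motifs were searched in the 250 bases before RefSeq starts. The labels number the mice and do not say whether they are littermates. The p-values set each difference against the spread between these mice and treat the mice as independent, which the labels cannot show.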

Additional observations from a re-analysis of the deposited data

Results flagged for a closer look

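Within each group of 4 mice, the highest and the lowest library of every called gene named by rule was checked for a gap to the nearest other library. The gap was taken on a log2 scale, as a share of the group's range, and flagged above Dixon's critical value for 4 samples. The levels printed below are CPM. Of 180 such checks 28 met this, where about 9 would by chance (1 in 20), and 15 of the 28 were EKO mouse 1.

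EKO mouse 1 was the lowest of its group, and far from the other EKO mice, for the cytokine genes Il1f6 (0.516 CPM, others 79.3 to 92.4), Il1f9 (58.5 CPM, others 252 to 325) and Il1a (3.51 CPM, others 29.4 to 40.6). The same held for the protease inhibitor genes Stfa3 (12.4 CPM, others 698 to 992) and Serpinb3b (2.17 CPM, others 20.6 to 30.1), for Slurp2 (12.7 CPM, others 195 to 328), Defb14 (0.723 CPM, others 14.2 to 22.3) and Atp12a (2.06 CPM, others 111 to 218). Among barrier genes it held for Hrnr (92.8 CPM, others 602 to 684), Lce1g (8.67 CPM, others 129 to 147), Lce1e (42.5 CPM, others 343 to 442) and Klk11 (31.8 CPM, others 110 to 127). Among lipid genes it held for Lipk (15.8 CPM, others 110 to 154), Elovl3 (50.1 CPM, others 145 to 170) and Slc27a4 (153 CPM, others 411 to 478). The label of this mouse is that of its group, its Zc3h12a level was below that of every non-carrier, and why it differs was not tested.

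The other 13 were spread over 9 libraries. In EMdKO skin, Zc3h12a was lowest in mouse 4 (4.41 CPM, others 5.47 to 5.71) and Tmem100 highest in mouse 3 (11.5 CPM, others 5.63 to 6.30). In EKO skin, Ngfr was lowest in mouse 2 (2.70 CPM, others 5.68 to 6.57) and Dact1 lowest in mouse 3 (16.5 CPM, others 19.5 to 19.8). In MKO skin, mouse 1 was lowest for Slurp2 (1.57 CPM, others 8.66 to 11.6) and Elovl5 (143 CPM, others 187 to 198), and mouse 2 was highest for Serpinb3a (0.126 CPM, a single count, others 0), Degs2 (3.67 CPM, others 1.43 to 1.63) and Serpinb12 (24.9 CPM, others 15.8 to 17.1). In Control skin, mouse 1 was lowest for Defb6 (4.46 CPM, others 6.17 to 6.50) and Cidea (3.72 CPM, others 9.06 to 10.2), mouse 2 was highest for Defb14 (4.46 CPM, others 1.24 to 1.49) and mouse 4 lowest for Il1f8 (5.50 CPM, others 6.82 to 7.06).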

How the results depend on the processing

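The count of 126 called targets became 312 in DESeq2 (236 higher, 76 lower), 589 in limma-voom (365 higher, 224 lower) and 205 with the hair score as a covariate (168 higher, 37 lower), and lay between 109 and 143 under the other settings without a mouse left out. Of the 126, DESeq2 called 126, limma-voom 123 and the hair covariate fit 126. Scaling by library size alone gave 110 higher and 16 lower. Leaving out 1 mouse gave 47 to 353 calls: 353 without EKO mouse 1, 230 without Control mouse 1, 47, 64 and 69 without EKO mice 2, 3 and 4, 78 and 69 without MKO mice 3 and 4, and 79 without Control mouse 3. Of the 126, 44 were called in all 16 of these fits.

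EKO against Control gave 0 calls in edgeR, 59 in DESeq2, 4 in limma-voom and 0 to 127 with a mouse left out, 127 being without EKO mouse 1. EMdKO against MKO gave 1 call, 147 in DESeq2, 8 in limma-voom, 90 with those 8 libraries alone and 1 to 95 with a mouse left out, 95 being without EKO mouse 1. The interaction gave 3 calls in DESeq2. The cause of these shifts was not tested.

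Zc3h12a kept its call in every setting (-2.11 to -1.81). The 44 other named genes that passed kept direction in all of 1232 refits and kept the call in 1020, and 19 of them kept it in every setting. Lyz2, which never passed, changed sign to 0.03 with library size alone and 0.02 with no low-count filter, and lay between -0.11 and 0.12 with a mouse left out. Foxn1, also not called, changed to 0.03 in limma-voom and lay between -0.87 and 0.20 with a mouse left out.

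Deviations from the group means were correlated between mice of different groups. Of 24 same-numbered pairs 7 had a correlation over 0.1 (median -0.11, range -0.54 to 0.61). Of 72 pairs with different numbers 32 did (median 0.01, range -0.72 to 0.57). Same-numbered mice were thus no more alike than others, which cannot tell whether they share a litter or a batch. With a replicate block 114 targets passed, 107 higher and 7 lower, and 101 of the 126 remained. The block left EKO against Control at 0, EMdKO against MKO at 1 and the interaction at 0 calls, and Zc3h12a at -1.90.

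Depth limits genes of few counts: 5 of the 126 had a mean log2 CPM under 1, and Serpinb3a had 6 counts in all non-carriers.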

Other observations

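Beyond the lists, the genes that rose hold several enzymes of lipid handling, grouped here after their values were seen, so the grouping carries no test. Arylacetamide deacetylases and related lipid hydrolases rose together: Aadacl3 by 2.20 ± 0.33 on the log2 scale, from 5.02 to 10.1 CPM in non-carriers to 28.3 to 63.8 CPM in the 7 carriers without EKO mouse 1, and Aadacl4fm5, AAdacl4fm3, Aadac and Abhd12b by 2.26, 1.33, 1.53 and 2.42. Acox2 and Acoxl, acyl-CoA oxidases, rose by 1.67 and 1.69, Acot5, an acyl-CoA thioesterase, by 2.55 and Pank1, which starts coenzyme A synthesis, by 0.87. Elovl6 and Fa2h, which elongate and hydroxylate fatty acids, rose by 1.49 and 1.73, Cers4, a ceramide synthase, by 1.35 and Sgpp2, a sphingosine phosphate phosphatase, by 2.35. Retinol dehydrogenases and their relatives Rdh1, Rdh11, Sdr16c5, Sdr16c6 and Adh7 rose by 1.21, 0.84, 1.27, 1.25 and 0.98. At Aadacl3, Acox2 and Sgpp2, EKO mouse 1 had 5.37, 6.92 and 5.99 CPM, inside the non-carrier range.

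Outside lipid metabolism, and named after their values were seen, Slc5a1, a sodium-glucose cotransporter, rose by 1.96, Slc37a2, a sugar phosphate transporter, by 1.86 and Abcc3, an export pump, by 1.76. Tnfsf15, the cytokine TL1A, rose by 1.57 (from 1.63 to 8.21 CPM in non-carriers to 6.92 to 19.7 CPM in carriers other than EKO mouse 1, which had 3.30 CPM). Gsdma2, a second gasdermin, rose by 3.44 from at most 0.747 CPM in non-carriers. The kinesin genes Kif26b, Kif22 and Kifc1 rose by 1.51, 0.94 and 0.73, and Kifc1 was the 1 called target that was also called for LysM-Cre. The 6 called targets without overlap between the 8 carriers and the 8 non-carriers were Zc3h12a, Rab3b, Ildr2, Tox3, Adamtsl1 and Gapdhs. Tox3, a chromatin protein gene, lay between 1.03 and 3.41 CPM in non-carriers and between 0.105 and 0.666 CPM in carriers, EKO mouse 1 included at 0.413 CPM. The last target to pass was Ctnnbip1, at an adjusted p of 0.0465, and the next, Cyp3a13, had 0.0518 (edgeR).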
